A study of Mus with 8 samples.

Results

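Mouse RAW264 cells that had been kept with BTEE before an LPS stimulus of 17 h were compared with cells that received the same LPS stimulus without BTEE. BTEE is an extract of the green microalga Botryococcus terribilis made in ethanol, and LPS is the bacterial lipopolysaccharide that macrophages sense through the receptor TLR4. The comparison holds 2 arrays of BTEE cells and 2 arrays of control cells, chosen by their labels, of the 8 arrays and 4 groups of the series. The BTEE cells received 0.2 mg/mL of the extract for 24 h and then 1 ng/mL LPS for 17 h, and the control cells received 1 ng/mL LPS for 17 h. The other 4 arrays hold the same pair of conditions after 6 h of LPS and entered the fit for the estimate of the spread and for the comparison of the times. Every group received LPS, so that no array shows cells without it. RAW264 is 1 line, which came from a BALB/c mouse tumor induced with the Abelson leukemia virus and resembles macrophages. The sources do not name an ethanol vehicle for the control cells, and the array dose lay above the highest one that the study describes as free of significant cytotoxicity. The sources do not say whether duplicate arrays stand for separate cultures, so that p-values here measure only the spread between these arrays, which may be technical. In such bulk RNA, fewer cells of a type and less RNA per cell cannot be told apart.

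In macrophages, LPS switches on immediate early transcription factors within minutes, the NF-kB and MAP kinase pathways that drive cytokine and chemokine genes, and then negative feedback proteins such as A20, the IkB proteins and the DUSP phosphatases. The stimulus also slows the cell cycle and moves energy metabolism from mitochondrial respiration towards glycolysis, with a TCA cycle that is interrupted around isocitrate and succinate. Late samples of an LPS response therefore hold both the lasting inflammatory transcripts and the genes of growth and respiration.

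The arrays (Clariom S, mouse) gave 1 log2 signal for each gene, and 1 unit of log2 is a 2-fold difference in signal. The value after ± is the standard error of the fit for a log2 fold change. Of 21154 gene symbols, 9332 averaged 6 or more over the 4 arrays, and these expressed symbols are the ones described below. Among them, 1584 fell and 2034 rose with BTEE at an adjusted p under 0.05 in limma's moderated test, which is 17.0% and 21.8%, and the median log2 fold change was 0.02. The typical change was small, with a median fold of 1.35 among the symbols that fell and 1.36 among those that rose, and 51 fell and 48 rose by more than 2-fold. Over all symbols the shares were 13.6% and 14.9%. Just under the threshold, at signals of 5.5 to 6, 13.7% of 823 symbols fell and 13.4% rose, and just above it, at 6 to 6.5, 17.0% of 611 fell and 11.3% rose. With 2 arrays a group, groups that did not overlap were common, with all BTEE signals lower for 35.4% of the expressed symbols and all higher for 41.7%. Leaving out any 1 of the 4 arrays reduced the calls. They came to 933 lower and 1202 higher without the first BTEE array, 937 and 1210 without the second, 819 and 1104 without the first control array, and 805 and 1069 without the second.

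Sensory receptor genes (olfactory, vomeronasal and taste receptors) served as a background for the calls. Their median log2 signal was 3.62 and only 18 of them averaged at least 6. Most thus lay under the signals of the expressed symbols, and their spread may differ from that of expressed symbols. Of 1454 such genes, 8.94% fell and 8.73% rose, and at a fold over 1.5 the shares were 4.33% and 4.26%, against 4.28% and 5.63% of the expressed symbols. Their BTEE and control means differed with an SD of 0.358 log2 units, where the spread between duplicate arrays predicted 0.166. When the excess spread, an SD of 0.317, was added in quadrature to the standard error of every difference, 0 symbols passed at an adjusted p under 0.05 in limma. Before adjustment, 259 lower and 264 higher symbols still exceeded 1.5-fold at p under 0.05. In the fit without that spread these were 887 lower and 972 higher, or 4.19% and 4.59% of all symbols. The 30 largest changes named below then had unadjusted p-values between 0.00123 and 0.0100. Every call at 17 h below, and every call of a difference between the times, was lost under that alternative. Its effect on the calls at 6 h was not counted.

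Genes that define macrophages were strongly expressed in all 4 arrays. Of 21 expressed genes of macrophage identity, 3 fell with BTEE and 5 rose (1 to 3 without 1 array), and their median log2 fold change was 0.00. These shares of 14.3% lower and 23.8% higher lay near the 17.0% and 21.8% of all expressed symbols. Both calls named below were falls, and the members that rose are not named there. The F4/80 gene Adgre1 had log2 signals of 13.15 and 13.15 in BTEE cells, against 13.19 and 13.25 in control cells. Its log2 fold change of -0.07 ± 0.07 and that of Csf1r, the CSF1 receptor gene, at 0.18 ± 0.07, did not pass. Spi1, which encodes the macrophage transcription factor PU.1, fell, with log2 signals of 17.71 and 17.72 in BTEE cells, against 18.11 and 18.11 in control cells (log2 fold change -0.40 ± 0.07, adjusted p = 0.00646). Irf8, another transcription factor of the lineage, also fell (log2 fold change -0.64 ± 0.07). Marker lists of other cells had median log2 signals of 3.55 for B cells, 3.42 for T and NK cells, 4.04 for neutrophils and 4.44 for fibroblasts. In them 0 of 10, 2 of 10, 4 of 12 and 1 of 9 measured markers passed the test, and their part in the results was not tested.

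The largest fall among expressed genes was that of Nab2, whose protein binds EGR transcription factors and represses their targets. Nab2 had log2 signals of 7.89 and 7.95 in BTEE cells, against 9.59 and 9.61 in control cells. The receptor tyrosine kinase gene Axl, which takes part in the uptake of dying cells and in the damping of innate signals, lies at chr7:25756500-25788924 (mouse build GRCm38, as are all positions here). Axl had log2 signals of 6.48 and 6.86 in BTEE cells, against 8.24 and 8.30 in control cells, a 3.03-fold fall (log2 fold change -1.60 ± 0.12, adjusted p = 0.0011). Gas6, its ligand, rose (log2 fold change 0.60 ± 0.15, adjusted p = 0.0273), a call that was lost without the first BTEE array or the second control array. Itgax, the CD11c integrin gene, had log2 signals of 5.79 and 5.53 in BTEE cells, against 7.07 and 7.29 in control cells (log2 fold change -1.52 ± 0.13, adjusted p = 0.00122). Itgax averaged at least 6 only through its control arrays. In all 3 of the falling genes the BTEE arrays lay under the control arrays, which the rule for the largest falls required.

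The chemokine genes Cxcl3 and Ccl22 and the signalling gene Malt1 were also among the 15 largest falls. Cxcl3, which recruits neutrophils and lies at chr5:90786101-90788093, had log2 signals of 9.72 and 9.95 in BTEE cells, against 11.40 and 11.40 in control cells, a 2.96-fold fall (log2 fold change -1.56 ± 0.11, adjusted p = 0.000957). Ccl22, the ligand of CCR4 on regulatory and type 2 helper T cells, had log2 signals of 10.22 and 10.04 in BTEE cells, against 11.48 and 11.44 in control cells (log2 fold change -1.33 ± 0.08, adjusted p = 0.000913). In both genes the BTEE arrays lay more than 1 log2 unit under the control arrays. Malt1, the paracaspase that carries signals of CARD proteins to NF-kB, had log2 signals of 10.42 and 10.38 in BTEE cells, against 11.81 and 11.85 in control cells (log2 fold change -1.43 ± 0.07, adjusted p = 0.000913), and its duplicates lay close together.

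Growth factor, lipid and chromatin genes were also among the 15 largest falls. Pdgfa, a chain of platelet-derived growth factor, had log2 signals of 8.10 and 8.05 in BTEE cells, against 9.30 and 9.31 in control cells (log2 fold change -1.23 ± 0.07, adjusted p = 0.000913). Napepld, whose enzyme releases N-acylethanolamines such as anandamide from membrane phospholipids, had log2 signals of 7.78 and 7.97 in BTEE cells, against 9.11 and 9.11 in control cells (log2 fold change -1.24 ± 0.10, adjusted p = 0.00112). Both genes separated the groups without overlap, which the rule for the largest falls required. Chd1, a chromatin remodeller that binds methylated histone H3, had a log2 fold change of -1.22 ± 0.13 (adjusted p = 0.00172). Wbp2, a transcription coactivator with WW domain partners, had a log2 fold change of -1.32 ± 0.08 (adjusted p = 0.000913) at log2 signals of 11.30 and 11.35 in BTEE cells, against 12.63 and 12.67 in control cells. The MAP kinase phosphatase gene Dusp14 had a log2 fold change of -1.22 ± 0.08 (adjusted p = 0.000913). Falls also came from transcripts with little annotation, which are the long noncoding RNA A230020J21Rik (log2 fold change -1.21 ± 0.11), the pseudogene Gm2573 (log2 fold change -1.26 ± 0.08) and the predicted gene Gm21188 (log2 fold change -1.23 ± 0.08).

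Histone genes and genes of mitochondrial respiration were among the largest rises. Hist1h4f, a histone H4 gene that the reference annotation calls H4c6, lies at chr13:23551286-23551668 and had log2 signals of 11.26 and 11.43 in BTEE cells, against 9.85 and 9.84 in control cells, a 2.83-fold rise (adjusted p = 0.000913). Ndufs7 encodes an iron-sulfur subunit of complex I of the respiratory chain and lies at chr10:80249105-80256794. It had log2 signals of 13.61 and 13.54 in BTEE cells, against 12.33 and 12.37 in control cells, a 2.34-fold rise (log2 fold change 1.23 ± 0.08, adjusted p = 0.000929). In both genes the groups lay more than 1 log2 unit apart. Bcs1l, which inserts the Rieske protein into complex III, also belonged to the 15 largest rises.

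Further rises came from RNA capping, chromatin and ion transport. Fam103a1, now named Ramac, activates the methyltransferase of the mRNA cap, and had log2 signals of 9.76 and 9.92 in BTEE cells, against 8.58 and 8.54 in control cells (log2 fold change 1.28 ± 0.08, adjusted p = 0.000913). Pcgf2, a Polycomb ring finger gene, had log2 signals of 6.85 and 7.27 in BTEE cells, against 5.80 and 5.81 in control cells (log2 fold change 1.25 ± 0.14, adjusted p = 0.00202). Lrwd1, a partner of the origin recognition complex, had a log2 fold change of 1.20 ± 0.13 (adjusted p = 0.00187), and the selenoprotein H gene 2700094K13Rik (Selenoh) had a log2 fold change of 1.20 ± 0.08 (adjusted p = 0.000929). In all 4 genes both BTEE arrays lay above both control arrays, which the rule for the largest rises required. Pcgf2 averaged at least 6 only through its BTEE arrays. Cnnm2, which is needed for magnesium transport in the kidney, had log2 signals of 8.57 and 8.57 in BTEE cells, against 7.34 and 7.40 in control cells (log2 fold change 1.20 ± 0.08, adjusted p = 0.000951). The zinc finger gene Zfp27 (log2 fold change 1.22 ± 0.09) and the histone gene Hist1h4d (log2 fold change 1.21 ± 0.07) rose. The predicted genes that the reference annotation does not place, Gm10721 and Gm21738, also rose. Gm10721 had log2 signals of 13.10 and 12.93 in BTEE cells, against 11.95 and 11.32 in control cells (log2 fold change 1.38 ± 0.19, adjusted p = 0.00353), the widest pair of duplicates among the 30 genes.

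**Figure D1:**
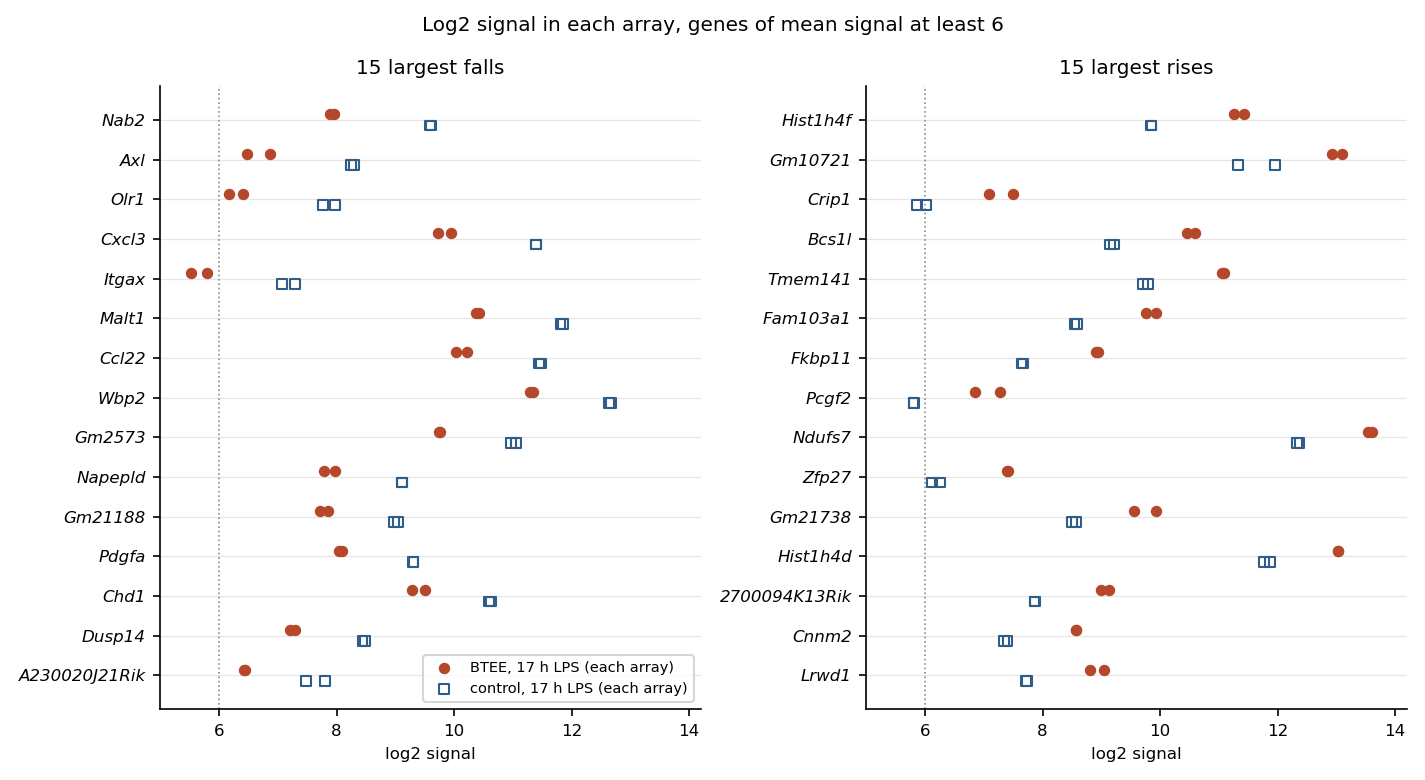
Log2 signal (x axis) of the 15 genes that fell most and the 15 that rose most (y axis) in each array at 17 h of LPS, with filled circles for the 2 BTEE arrays, open squares for the 2 control arrays and a dotted line at the signal of 6. The circles lie left of the squares for each fall, such as Axl, and right of them for each rise, such as Ndufs7. The lack of overlap was required by the choice of these genes.

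Most of these 30 genes had a different BTEE effect after 6 h of LPS. The difference between the effects at 17 h and 6 h passed the test for 11 of the 15 falls and 14 of the 15 rises, where 40.6% of the expressed symbols and 31.4% of all symbols passed it. The genes were chosen for a large change at 17 h, so that this excess is partly set by the choice. Ndufs7 fell at 6 h, with a log2 fold change of -0.61 there (adjusted p = 0.00324) and a difference between the times of 1.84 (adjusted p = 0.000852). Cxcl3 had a log2 fold change of 0.39 at 6 h (adjusted p = 0.035), Pdgfa 0.41 (adjusted p = 0.00561) and Napepld 0.57 (adjusted p = 0.00737), so that these 3 genes rose at 6 h and fell at 17 h. Of the 30 genes, 18 passed the test at 6 h, 9 of them in the direction they had at 17 h and 9 in the opposite one. Axl, Itgax, Ccl22 and the scavenger receptor gene Olr1 fell at both times, and Fkbp11, a peptidyl-prolyl isomerase gene of the secretory pathway, rose at both. For Axl the log2 fold changes were -1.60 at 17 h and -1.50 at 6 h, and their difference did not pass (adjusted p = 0.712).

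**Figure D2:**
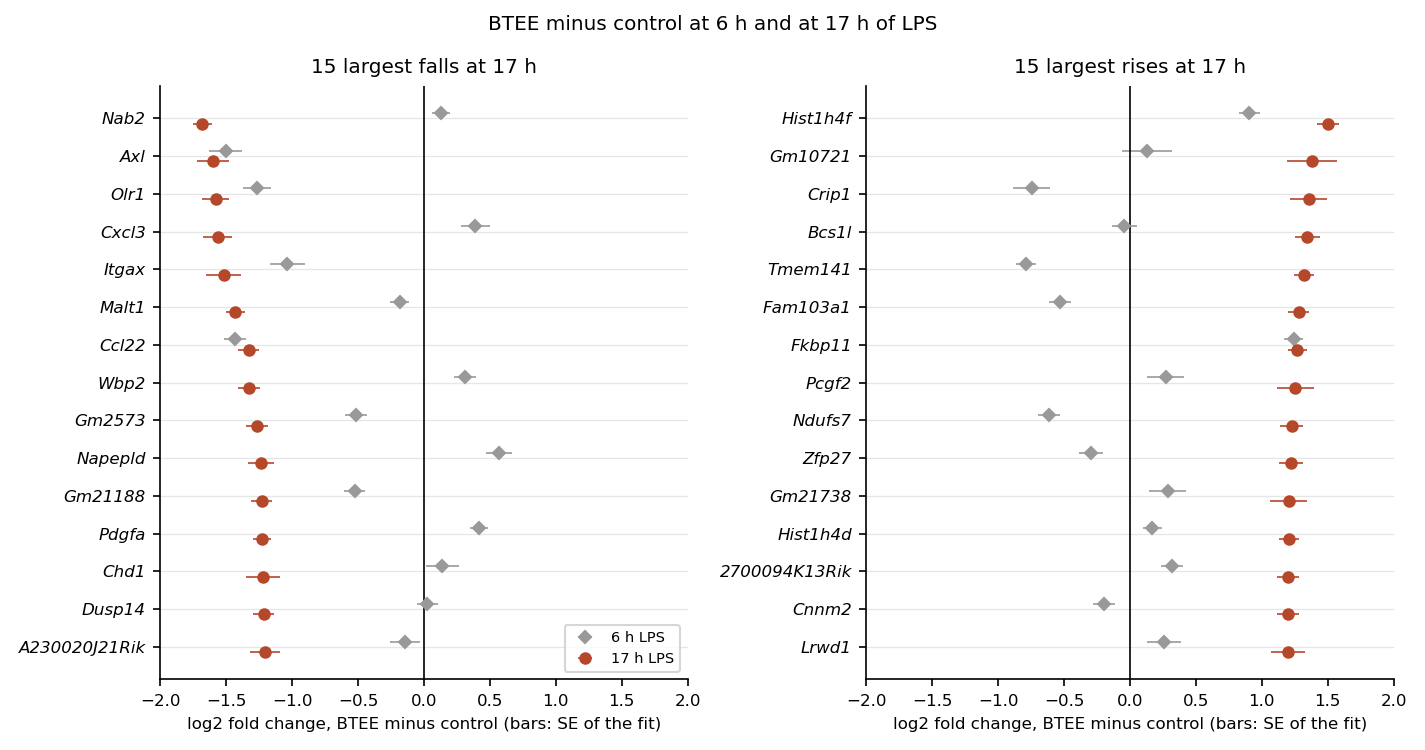
Log2 fold change of BTEE minus control (x axis) for the same 30 genes (y axis) at 6 h (grey diamonds) and 17 h (red circles) of LPS, with bars for the standard error of the fit. The diamonds of Axl, Olr1, Ccl22 and Fkbp11 lie beside their circles, and those of Ndufs7, Cxcl3 and Napepld lie on the other side of 0.

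Across the gene lists, the shares that fell or rose with BTEE included 83.3% of prefoldin genes that rose and 63.6% of MHC class II and costimulation genes that fell. Other shares lay near the background of 17.0% lower and 21.8% higher or under it, such as 5.26% lower and 10.5% higher for glycolysis and lactate. Lists of respiration, RNA handling, protein assembly and DNA replication held more rises than falls. Lists of NF-kB and MAP kinase feedback, cytokines and their receptors, chemokines, costimulation and the actin skeleton held more falls than rises. The lists overlap in part, they were picked with earlier results of these data known, and their counts are a description without a test of the list.

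**Figure D3:**
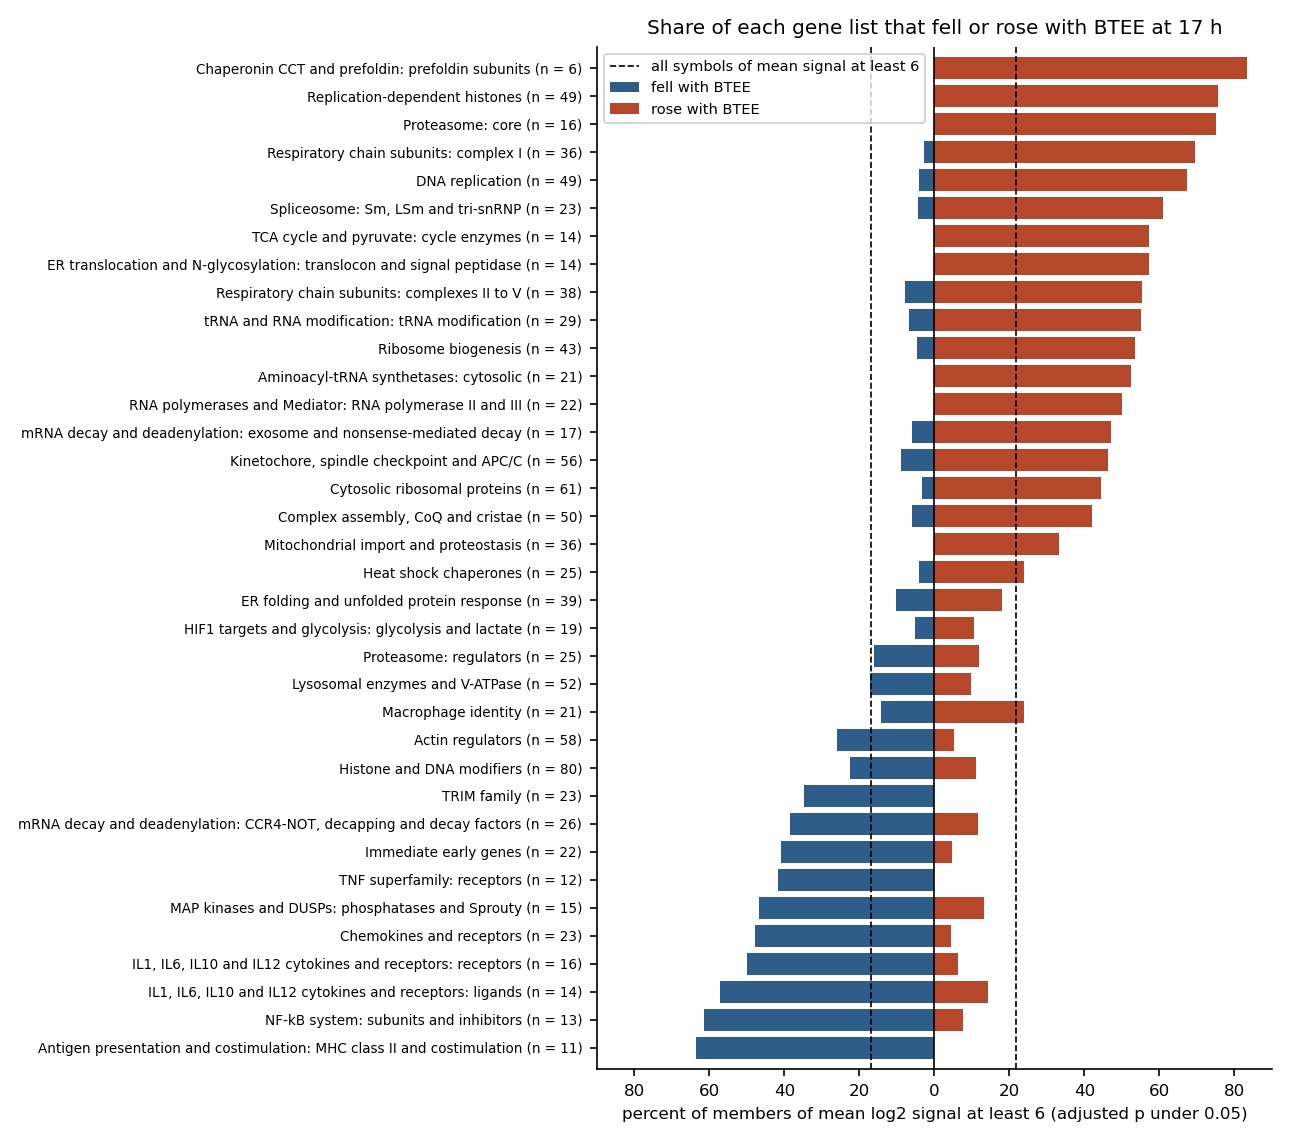
Percent of the expressed members of each gene list (y axis, with the number of members) that rose (red, right of 0) or fell (blue, left of 0) with BTEE at 17 h at an adjusted p under 0.05. Dashed lines mark 17.0% fallen and 21.8% risen among all expressed symbols, and the bars pass from prefoldin at the top, all of it to the right of 0, to MHC class II and costimulation at the bottom, all of it to the left of 0.

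In the NF-kB system, most subunit and inhibitor genes were lower, while adaptor genes moved both ways. Of 13 expressed NF-kB subunit and inhibitor genes, 8 fell, 1 rose and 4 did not pass, with a median log2 fold change of -0.26, and 3 fell when any 1 of the 4 arrays was left out. Rela, the transactivating p65 subunit, had log2 signals of 12.84 and 12.88 in BTEE cells, against 13.46 and 13.43 in control cells (log2 fold change -0.58 ± 0.07, adjusted p = 0.0023). Rel, which encodes c-Rel, fell too (log2 fold change -0.41 ± 0.07, adjusted p = 0.00593). The other subunits moved less. Nfkb2 had a log2 fold change of -0.26 ± 0.07 and Nfkbia, the IkB-alpha inhibitor, -0.26 ± 0.07, and both calls were lost when any 1 of the 4 arrays was left out, whereas Nfkb1 had a log2 fold change of -0.12 ± 0.07 and did not pass. Of the 19 feedback and adaptor genes, 6 fell, 4 rose and 9 did not pass (against 1 to 4 rises without 1 array). Beside Malt1, the falls included Tab3, an adaptor of the kinase TAK1 (log2 fold change -0.92 ± 0.09, adjusted p = 0.0016), Tnfaip3, which encodes A20 (log2 fold change -0.51 ± 0.08, adjusted p = 0.00604), and the A20 partner gene Tnip1 (log2 fold change -0.59 ± 0.07, adjusted p = 0.00199). Traf2, a ligase at TNF receptors, rose (log2 fold change 0.64 ± 0.07, adjusted p = 0.00187). Traf2 had log2 signals of 8.81 and 8.81 in BTEE cells, against 8.19 and 8.15 in control cells, without overlap.

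Among feedback phosphatases of MAP kinases and immediate early genes, falls outnumbered rises, though many members did not pass. Of 15 DUSP and Sprouty genes, 7 fell, 2 rose and 6 did not pass, with 3 to 4 falls when 1 of the 4 arrays was left out. Dusp5, a nuclear phosphatase of ERK, had log2 signals of 9.68 and 9.49 in BTEE cells, against 10.73 and 10.68 in control cells (log2 fold change -1.12 ± 0.09, adjusted p = 0.00111). Dusp1, which acts on p38 and JNK, had log2 signals of 14.42 and 14.47 in BTEE cells, against 15.04 and 15.11 in control cells (log2 fold change -0.63 ± 0.07, adjusted p = 0.00193). The BTEE signals of both genes lay under the control signals, and the effect on Dusp5 differed from the one at 6 h (difference -0.87, adjusted p = 0.00377). Of the 33 MAP kinase genes, 9 fell, 3 rose and 21 did not pass (against 4 to 6 falls without 1 array). Of 22 immediate early genes, 9 fell, 1 rose and 12 did not pass, with a median log2 fold change of -0.24. Egr1, whose product NAB2 represses, had log2 signals of 6.42 and 6.89 in BTEE cells, against 7.70 and 7.66 in control cells (log2 fold change -1.02 ± 0.14, adjusted p = 0.00363), and Egr2 had a log2 fold change of -0.61 ± 0.09. The AP-1 genes Fosl1 (log2 fold change -0.82 ± 0.11) and Fosl2 (log2 fold change -0.81 ± 0.09) fell, whereas Fos itself rose (log2 fold change 0.71 ± 0.12), with signals of 6.96 and 6.64 in BTEE cells, against 6.09 and 6.09 in control cells.

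Cytokine ligand and receptor genes fell more often than they rose. Of 14 expressed ligand genes of the IL1, IL6, IL10 and IL12 families, 8 fell, 2 rose and 4 did not pass, and of 16 receptor genes 8 fell, 1 rose and 7 did not pass. Without 1 array, 6 to 7 ligand genes and 2 receptor genes fell. These were 42.9% to 50.0% of the ligand genes and 12.5% of the receptor genes. Of all expressed symbols 8.63% to 10.0% then fell, so that the receptor share lay near theirs. Csf2ra, the binding chain of the GM-CSF receptor, had log2 signals of 12.54 and 12.71 in BTEE cells, against 13.75 and 13.90 in control cells, a 2.3-fold fall (log2 fold change -1.20 ± 0.09, adjusted p = 0.00103). The gene of its ligand, Csf2, rose at low log2 signals of 7.50 and 7.35 in BTEE cells, against 6.57 and 6.90 in control cells (log2 fold change 0.69 ± 0.13, adjusted p = 0.0091). Il1a had log2 signals of 14.95 and 15.01 in BTEE cells, against 15.69 and 15.70 in control cells (log2 fold change -0.71 ± 0.07, adjusted p = 0.00142). Of these genes only Csf2 was higher in BTEE cells, and in none did the groups overlap. Il1b, the other IL1 agonist, had a log2 fold change of -0.64 ± 0.08, Il6 -0.82 ± 0.07 and the IL6 family cytokine Lif -0.71 ± 0.10, and all 3 fell. Of 12 TNF receptor genes, 5 fell, 0 rose and 7 did not pass (against 1 to 2 falls without 1 array), led by Tnfrsf1b, the type 2 receptor of TNF, with log2 signals of 14.38 and 14.25 in BTEE cells, against 15.15 and 15.17 in control cells (log2 fold change -0.84 ± 0.07, adjusted p = 0.00124). Without 1 array the share of TNF receptor genes that fell, 8.33% to 16.7%, also lay near that of all expressed symbols. Among the ligands, Tnfsf15 fell (log2 fold change -0.93 ± 0.07) and the lymphotoxin beta gene Ltb rose (log2 fold change 0.62 ± 0.10).

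Chemokine and costimulation genes also fell more often than they rose. Of 23 chemokine and receptor genes, 11 fell, 1 rose and 11 did not pass (against 7 to 9 falls without 1 array). Cxcl10, the interferon-inducible ligand of CXCR3, had a log2 fold change of -1.04 ± 0.08 (adjusted p = 0.00101), and Ccl6 had a log2 fold change of -0.90 ± 0.08. Of 11 MHC class II and costimulation genes, 7 fell, 0 rose and 4 did not pass, and 6 fell without 1 array. Vsir, which encodes the inhibitory ligand VISTA, had log2 signals of 10.77 and 10.71 in BTEE cells, against 11.64 and 11.59 in control cells (log2 fold change -0.88 ± 0.08, adjusted p = 0.00127). Cd80, a ligand of CD28 and CTLA4, had a log2 fold change of -0.70 ± 0.08 (adjusted p = 0.00247), and Havcr2, the TIM3 gene, had a log2 fold change of -0.56 ± 0.09 (adjusted p = 0.00545). The members that fell include ligands and receptors that inhibit T cells. In the list of interferon-stimulated genes and their signalling factors, 38 of 81 fell, 4 rose and 39 did not pass (against 20 to 22 falls without 1 array). Of the signalling factors, the kinase gene Jak1 of interferon receptors had log2 signals of 10.76 and 10.61 in BTEE cells, against 11.61 and 11.62 in control cells (log2 fold change -0.93 ± 0.08, adjusted p = 0.00122), and Stat2 fell (log2 fold change -0.60 ± 0.07). The kinase and the transcription factor carry the interferon signal from the receptor to the nucleus. Of 23 TRIM ubiquitin ligase genes, 8 fell, 0 rose and 15 did not pass (against 5 to 7 falls without 1 array), among them Trim25, which acts on the RNA sensor RIG-I (log2 fold change -0.47 ± 0.08).

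Adhesion and cytoskeleton genes were lower more often than higher. Of 23 expressed integrin and adhesion genes, 11 fell, 4 rose and 8 did not pass (against 6 to 8 falls and 1 to 2 rises without 1 array). Itgav, the alpha-V chain, had log2 signals of 10.51 and 10.52 in BTEE cells, against 11.22 and 11.17 in control cells (log2 fold change -0.68 ± 0.07, adjusted p = 0.00191), and the adhesion kinase gene Ptk2b had a log2 fold change of -0.59 ± 0.09. Itga6, a laminin receptor chain, went the other way (log2 fold change 1.10 ± 0.16, adjusted p = 0.00395). Of 23 genes of Arp2/3, WAVE and other actin nucleators, 7 fell, 0 rose and 16 did not pass (against 4 to 5 falls without 1 array), and the Arp2/3 subunit gene Arpc4 (log2 fold change -0.56 ± 0.07) and the formin gene Fmnl1 (log2 fold change -0.55 ± 0.07) led them.

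Regulators of mRNA decay, chromatin and second messengers also held falls. Of 26 genes of the CCR4-NOT deadenylase, decapping and related decay factors, 10 fell, 3 rose and 13 did not pass, with 4 to 7 falls without 1 array. Zfp36, whose product tristetraprolin binds AU-rich cytokine mRNAs and recruits the deadenylase, had log2 signals of 12.07 and 12.04 in BTEE cells, against 12.91 and 12.86 in control cells (log2 fold change -0.83 ± 0.08, adjusted p = 0.0014), and the antiproliferative gene Tob2, which averaged at least 6 only through its control arrays, had a log2 fold change of -0.75 ± 0.09. Of 80 histone and DNA modifier genes, 18 fell, 9 rose and 53 did not pass (against 9 to 13 falls without 1 array). These shares were 22.5% lower and 11.2% higher, beside the background of 17.0% and 21.8%. Beside Chd1, the histone H3 methyltransferase genes Setd1a (log2 fold change -0.84 ± 0.11, adjusted p = 0.00304) and Dot1l (log2 fold change -0.81 ± 0.14, adjusted p = 0.00716) fell, and the arginine methyltransferase gene Prmt1 (log2 fold change 0.78 ± 0.07, adjusted p = 0.00122) and the demethylase gene Kdm4a (log2 fold change 0.75 ± 0.07, adjusted p = 0.00142) rose. Pde4b, the cAMP phosphodiesterase that LPS induces, had log2 signals of 7.09 and 7.08 in BTEE cells, against 8.13 and 8.16 in control cells (log2 fold change -1.06 ± 0.07, adjusted p = 0.000929), and Prkaca, the catalytic subunit of protein kinase A, had a log2 fold change of -0.58 ± 0.08. Both genes act in cAMP signalling, and for Pde4b the duplicates lay close together. Of 22 TGF-beta and BMP genes, 7 fell, 1 rose and 14 did not pass (against 3 to 6 falls without 1 array), with the BMP receptor genes Bmpr2 (log2 fold change -0.83 ± 0.09) and Bmpr1a (log2 fold change -0.56 ± 0.07) in the lead. The coactivator genes Ncoa1 (log2 fold change -0.94 ± 0.10) and Ncoa6 (log2 fold change -0.69 ± 0.06) of nuclear receptors fell, and the retinoic acid receptor gene Rarb rose (log2 fold change 0.92 ± 0.08).

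**Figure D4:**
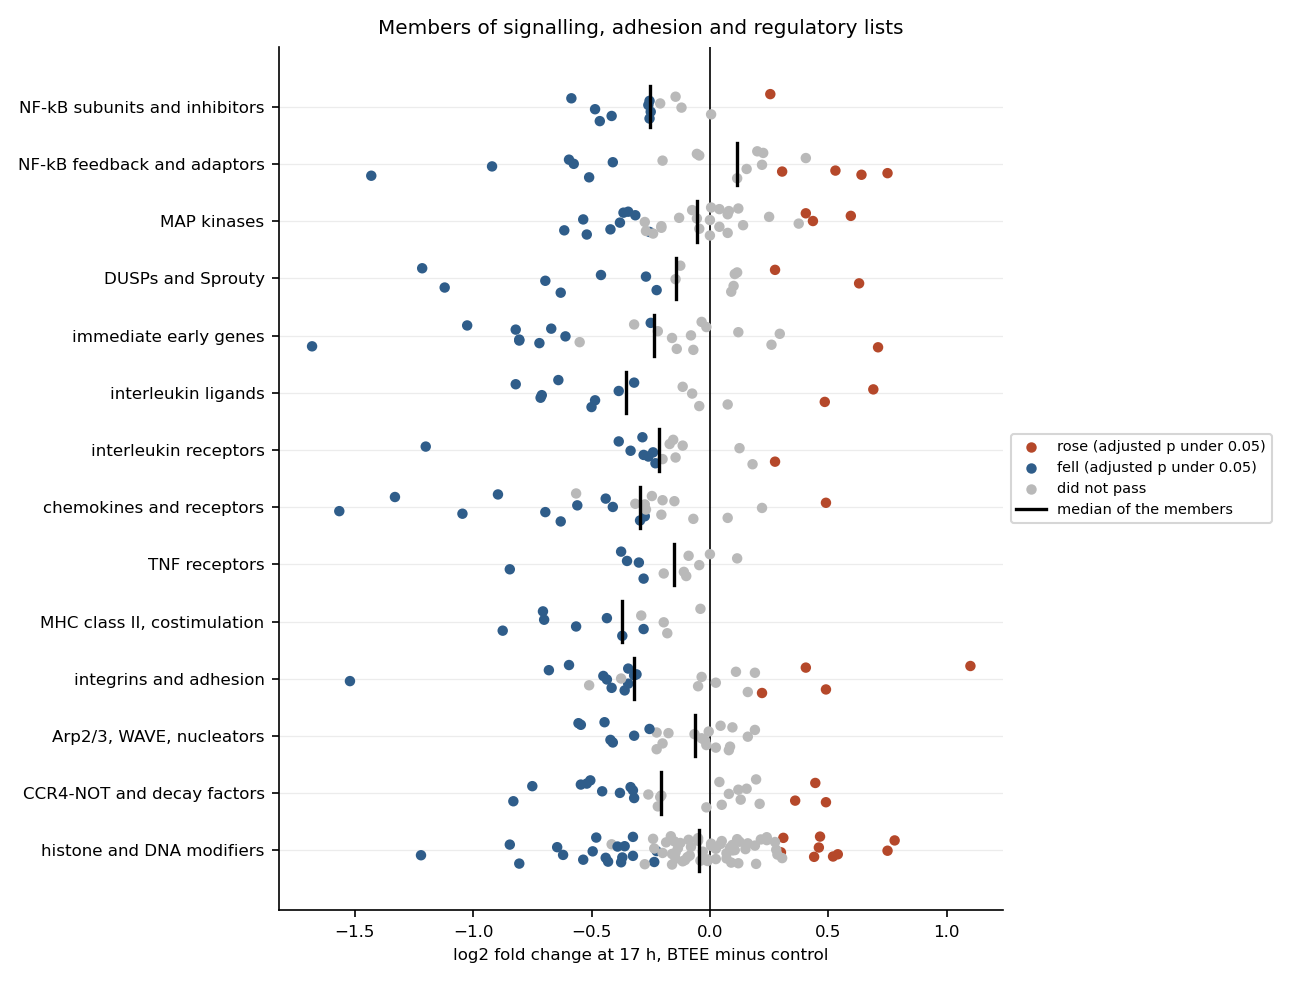
Log2 fold change of BTEE minus control at 17 h (x axis) of each expressed member of 14 signalling, adhesion and regulatory lists (y axis), in red where it rose, blue where it fell and grey where it did not pass, with a bar at the median. The medians lie left of 0 for all lists drawn but NF-kB feedback and adaptors, and Malt1 is the leftmost point of that list.

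Most genes of the respiratory chain rose with BTEE at 17 h. Of 74 expressed subunit genes, 4 fell, 46 rose and 24 did not pass, with a median log2 fold change of 0.32, and 28 to 32 rose when 1 of the 4 arrays was left out. In complex I, which passes electrons from NADH to coenzyme Q, 25 of 36 rose and 1 fell, against 12 to 15 rises without 1 array. Beside Ndufs7, Ndufa11 had log2 signals of 10.28 and 10.58 in BTEE cells, against 9.44 and 9.29 in control cells (log2 fold change 1.06 ± 0.12, adjusted p = 0.00204), and Ndufb4 had a log2 fold change of 0.71 ± 0.07. In complexes II to V, 21 of 38 rose and 3 fell. Sdhd, the membrane anchor of succinate dehydrogenase, had log2 signals of 12.79 and 12.91 in BTEE cells, against 12.02 and 12.24 in control cells (log2 fold change 0.72 ± 0.09, adjusted p = 0.00303), and the cytochrome oxidase gene Cox6b1 had a log2 fold change of 0.73 ± 0.08. Both separated the groups without overlap. At 6 h Ndufa11 fell, with a log2 fold change of -0.79 (adjusted p = 0.00448) and a difference between the times of 1.85 (adjusted p = 0.00124). Cox6b1 had a log2 fold change of -0.41 at 6 h and a difference of 1.14 (adjusted p = 0.00153).

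Genes of mitochondrial assembly and import rose more often than the background of 21.8%. Of 50 genes of complex assembly, coenzyme Q synthesis and cristae, 3 fell, 21 rose and 26 did not pass, with 15 to 18 rises without 1 array. The copper chaperone gene Sco1 of cytochrome oxidase had a log2 fold change of 0.83 ± 0.07 (adjusted p = 0.00112), and Uqcc2, an assembly factor of complex III, had log2 signals of 10.97 and 10.85 in BTEE cells, against 10.16 and 10.16 in control cells (log2 fold change 0.75 ± 0.07, adjusted p = 0.00152). Of 36 genes of protein import and mitochondrial proteostasis, 0 fell, 12 rose and 24 did not pass, with 6 to 7 rises without 1 array. Pmpcb, a subunit of the peptidase that removes mitochondrial targeting sequences, had log2 signals of 12.80 and 12.90 in BTEE cells, against 11.92 and 11.76 in control cells (log2 fold change 1.01 ± 0.09, adjusted p = 0.0012), and it fell at 6 h (-0.66, adjusted p = 0.00277). Tfam, the packaging and transcription factor of mitochondrial DNA, had log2 signals of 8.61 and 8.59 in BTEE cells, against 8.04 and 8.05 in control cells and rose without overlap (log2 fold change 0.56 ± 0.08, adjusted p = 0.00473). Park7, which encodes the redox-sensitive protein DJ-1, had a log2 fold change of 0.92 ± 0.08 (adjusted p = 0.00122).

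More TCA cycle genes rose than did not, while most genes of glycolysis did not pass the test. Of 14 expressed TCA cycle genes, 0 fell, 8 rose and 6 did not pass, and 5 to 6 rose without 1 array. Idh3a, the catalytic subunit of the NAD-dependent isocitrate dehydrogenase, had log2 signals of 14.38 and 14.43 in BTEE cells, against 13.91 and 13.90 in control cells (log2 fold change 0.50 ± 0.07, adjusted p = 0.00434). Idh2, its NADP-dependent mitochondrial counterpart, had a log2 fold change of 0.48 ± 0.08, Sdha of succinate dehydrogenase 0.45 ± 0.07 and the dehydrogenase subunit gene Dld 0.46 ± 0.08. The first of these enzymes acts at isocitrate and Sdha at succinate, the steps at which LPS interrupts the cycle in macrophages. Whether LPS did so in these cells was not tested, since every group received LPS. Of 7 genes of pyruvate entry, 1 fell, 5 rose and 1 did not pass, and 1 to 2 rose without 1 array. Irg1, which makes itaconate in LPS-treated macrophages, had log2 signals of 16.98 and 16.94 in BTEE cells, against 17.13 and 16.98 in control cells, and did not pass (log2 fold change -0.10 ± 0.08, adjusted p = 0.431). Of 19 genes of glycolysis and lactate, 1 fell, 2 rose and 16 did not pass, with a median log2 fold change of -0.04. The lactate exporter gene Slc16a3 rose (log2 fold change 0.64 ± 0.07, adjusted p = 0.00183), and Pfkfb3, whose product stimulates phosphofructokinase, fell (log2 fold change -0.52 ± 0.09, adjusted p = 0.00743). Most other glycolytic genes did not pass. Hif1a, the transcription factor that drives glycolytic genes, fell too (log2 fold change -0.43 ± 0.07, adjusted p = 0.00507). The pentose phosphate genes Pgls (log2 fold change 0.58 ± 0.08) and Taldo1 (log2 fold change 0.55 ± 0.08) rose.

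Genes of the prefoldin complex and of the proteasome core mostly rose. Of 6 prefoldin genes, whose complex hands actin and tubulin to the chaperonin CCT, 0 fell, 5 rose and 1 did not pass, and 3 to 5 rose without 1 array. Pfdn6 had log2 signals of 11.44 and 11.32 in BTEE cells, against 10.48 and 10.42 in control cells (log2 fold change 0.93 ± 0.10, adjusted p = 0.00167), and Pfdn2 had a log2 fold change of 0.68 ± 0.08 (adjusted p = 0.00219). Of 7 CCT genes, 0 fell, 2 rose and 5 did not pass. In the proteasome, the 16 genes of the core particle split from the 25 of its regulators, since 12 of the core rose and 0 fell, whereas 3 of the regulators rose and 4 fell. Without 1 array, 8 to 9 core genes rose, and of the regulators 1 rose and 0 to 1 fell. The immunoproteasome subunit genes were among them, with Psmb10 at log2 signals of 10.99 and 10.96 in BTEE cells, against 10.40 and 10.26 in control cells (log2 fold change 0.65 ± 0.09, adjusted p = 0.0036), Psmb9 at a log2 fold change of 0.51 ± 0.08 and Psmb8 at one of 0.38 ± 0.07. These interferon-inducible genes fell at 6 h, where Psmb10 had a log2 fold change of -0.94, Psmb9 one of -0.94 and Psmb8 one of -0.56 (adjusted p = 0.00108, 0.000833 and 0.00214). Of the constitutive subunits, Psmb7 had a log2 fold change of 0.43 ± 0.07 (adjusted p = 0.00715).

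In the secretory pathway, genes of the translocon and of ER folding were counted apart, and the difference between the lists was not tested. Of 14 translocon and signal peptidase genes, 0 fell, 8 rose and 6 did not pass, but 2 to 4 rose without 1 array. Sec61g, the small subunit of the translocon, had log2 signals of 13.90 and 13.86 in BTEE cells, against 13.25 and 13.20 in control cells (log2 fold change 0.66 ± 0.07, adjusted p = 0.00194), and Ssr4 had a log2 fold change of 0.61 ± 0.07. The mannosyltransferase genes Alg12 (log2 fold change -0.81 ± 0.07, adjusted p = 0.00127) and Alg2 (log2 fold change -0.76 ± 0.11, adjusted p = 0.00369) fell, whereas at 6 h Alg12 had a log2 fold change of 0.79 and Alg2 0.62 and both rose (adjusted p = 0.001 and 0.00634). Of 39 genes of ER folding and the unfolded protein response, 4 fell, 7 rose and 28 did not pass (against 2 to 3 rises without 1 array), with a median log2 fold change of 0.06. Their shares of 10.3% lower and 17.9% higher were no more than the background of 17.0% and 21.8%. Xbp1, a transcription factor of this response, had a log2 fold change of 0.39 ± 0.08 (adjusted p = 0.0133), a call lost without either BTEE array or without the first control array. Trib3, a pseudokinase induced by ER stress, had log2 signals of 12.13 and 12.01 in BTEE cells, against 12.97 and 13.08 in control cells (log2 fold change -0.95 ± 0.09, adjusted p = 0.00135). Of 25 heat shock chaperone genes, 1 fell, 6 rose and 18 did not pass (against 3 to 4 rises without 1 array). The shares were 4.0% lower and 24.0% higher, and the share of rises lay near the background. Hsf1, the transcription factor of these genes, had a log2 fold change of -0.26 ± 0.09 and did not pass.

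Lists of other stress programs held falls and rises, beside the background of 17.0% lower and 21.8% higher. Of 29 genes of ATF4 targets and amino acid supply, 4 fell, 7 rose and 18 did not pass (against 3 to 4 rises without 1 array), or 13.8% lower and 24.1% higher. Slc7a2, the arginine transporter of activated macrophages, had log2 signals of 9.86 and 9.87 in BTEE cells, against 10.88 and 10.84 in control cells (log2 fold change -0.99 ± 0.07, adjusted p = 0.000973), and Phgdh, the entry enzyme of serine synthesis, rose (log2 fold change 0.73 ± 0.07, adjusted p = 0.00128). Of 27 NRF2 and glutathione genes, 2 fell, 8 rose and 17 did not pass (against 3 to 4 rises without 1 array), or 7.41% lower and 29.6% higher. Nfe2l2, which encodes NRF2, fell (log2 fold change -0.61 ± 0.09, adjusted p = 0.00515), its inhibitor gene Keap1 had a log2 fold change of -0.17 ± 0.10 and did not pass, and the lipid peroxide reductase gene Gpx4 rose (log2 fold change 0.60 ± 0.09, adjusted p = 0.0041). The change of Nfe2l2 was thus opposite to that of Gpx4. Of 22 p53 target genes, 6 fell, 2 rose and 14 did not pass (against 3 to 4 falls without 1 array), or 27.3% lower and 9.09% higher. Trp53 itself had log2 signals of 14.40 and 14.43 in BTEE cells, against 14.86 and 14.97 in control cells (log2 fold change -0.50 ± 0.08, adjusted p = 0.00581). The metallothionein gene Mt1 fell at a high signal (log2 fold change -0.56 ± 0.07, adjusted p = 0.00221), and Hamp, the gene of the iron hormone hepcidin, had log2 signals of 6.56 and 6.64 in BTEE cells, against 7.61 and 7.57 in control cells (log2 fold change -0.99 ± 0.11, adjusted p = 0.00186).

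Genes of the small spliceosomal proteins and of tRNA modification rose in more than the background share. Of 23 Sm, LSm and tri-snRNP genes, 1 fell, 14 rose and 8 did not pass, with a median log2 fold change of 0.38 and 9 to 12 rises without 1 array. Lsm4, part of the ring that binds U6 RNA, had log2 signals of 11.09 and 10.98 in BTEE cells, against 10.22 and 10.20 in control cells (log2 fold change 0.82 ± 0.08, adjusted p = 0.00148), and Snrpd2 of the Sm ring had log2 signals of 14.66 and 14.71 in BTEE cells, against 13.90 and 13.96 in control cells (log2 fold change 0.76 ± 0.07, adjusted p = 0.00129). The groups were separate in both. Of 29 tRNA modification genes, 2 fell, 16 rose and 11 did not pass, with 6 to 9 rises without 1 array. Trmt61a, which methylates adenine in the T loop of tRNA, had log2 signals of 8.92 and 9.17 in BTEE cells, against 8.05 and 8.13 in control cells (log2 fold change 0.95 ± 0.11, adjusted p = 0.00197), and Elp3, the acetyltransferase of the Elongator complex, had a log2 fold change of 0.61 ± 0.07. Of 21 cytosolic aminoacyl-tRNA synthetase genes, 0 fell, 11 rose and 10 did not pass, but 3 to 4 rose without 1 array.

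Polymerase, exosome and ribosome genes also rose more often than they fell. Of 22 RNA polymerase II and III genes, 0 fell, 11 rose and 11 did not pass (against 4 to 9 rises without 1 array), among them the polymerase III genes Polr3e (log2 fold change 0.70 ± 0.09, adjusted p = 0.00299) and Polr3g (log2 fold change 0.70 ± 0.11, adjusted p = 0.00486). The exosome degrades RNA from its 3′ end, and its gene Exosc7 had log2 signals of 9.89 and 10.27 in BTEE cells, against 8.95 and 8.83 in control cells, a 2.28-fold rise (log2 fold change 1.19 ± 0.13, adjusted p = 0.00197). Of 17 exosome and nonsense-mediated decay genes, 1 fell, 8 rose and 8 did not pass (against 3 to 6 rises without 1 array), whereas more deadenylation and decapping factors fell than rose. Both BTEE arrays of Exosc7 lay above both control arrays. Of 43 ribosome biogenesis genes, 2 fell, 23 rose and 18 did not pass, with 13 to 14 rises without 1 array. Rrp12 had log2 signals of 9.71 and 9.60 in BTEE cells, against 8.66 and 8.55 in control cells (log2 fold change 1.05 ± 0.08, adjusted p = 0.0011), and Wdr12, of the complex that processes rRNA of the large subunit, had a log2 fold change of 0.85 ± 0.07 (adjusted p = 0.00122). Of 61 ribosomal protein genes, 2 fell, 27 rose and 32 did not pass, and 0 to 1 fell and 4 to 11 rose without 1 array. The rises were then 6.56% to 18.0% of the list, which reached both under and over the share of all expressed symbols. Of the 9332 expressed symbols, 1069 to 1210 rose in the same fits. The ribosomal protein genes thus did not stay above the background of rises without 1 array. Ribosomal protein genes have many near-identical processed copies, so that their signals may hold those of pseudogenes.

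**Figure D5:**
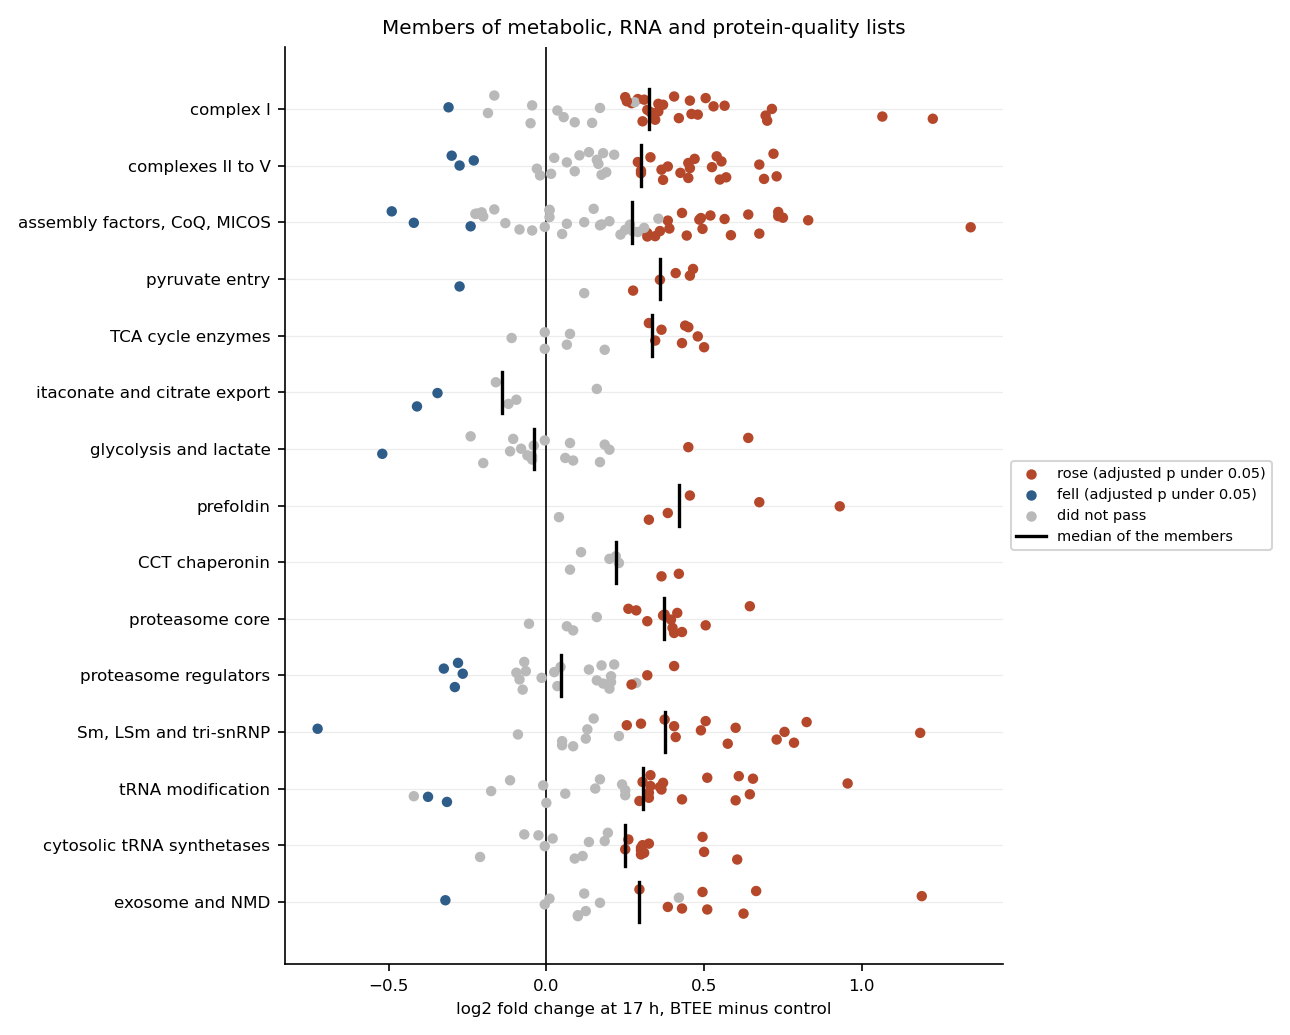
Log2 fold change of BTEE minus control at 17 h (x axis) of each expressed member of 15 metabolic, RNA and protein lists (y axis), coloured red where it rose, blue where it fell and grey where it did not pass, with a bar at the median. The medians of complex I, prefoldin and the proteasome core lie right of 0.25, and those of glycolysis and of itaconate and citrate export lie left of 0.

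Genes of nucleotide synthesis, DNA replication and mitosis rose more often than they fell. Impdh2, the rate-limiting enzyme of guanine nucleotide synthesis, had log2 signals of 12.93 and 12.82 in BTEE cells, against 12.03 and 11.98 in control cells (log2 fold change 0.87 ± 0.07, adjusted p = 0.00114), and the thymidylate genes Tyms (log2 fold change 0.72 ± 0.08, adjusted p = 0.00225) and Tk1 (log2 fold change 0.79 ± 0.10, adjusted p = 0.00305) rose. Of 49 replication genes, 2 fell, 33 rose and 14 did not pass, with 17 to 18 rises without 1 array. Prim1, the primase subunit, had log2 signals of 12.07 and 12.13 in BTEE cells, against 11.11 and 11.24 in control cells (log2 fold change 0.93 ± 0.09, adjusted p = 0.00157), and Gins1 of the replicative helicase had log2 signals of 9.23 and 9.34 in BTEE cells, against 8.34 and 8.36 in control cells (log2 fold change 0.94 ± 0.08, adjusted p = 0.00127). Neither gene had overlapping groups. Of 56 kinetochore, checkpoint and anaphase-promoting complex genes, 5 fell, 26 rose and 25 did not pass (against 1 to 2 falls and 15 to 19 rises without 1 array). Ccnb2, a mitotic cyclin gene, had log2 signals of 11.02 and 10.99 in BTEE cells, against 9.95 and 9.96 in control cells (log2 fold change 1.05 ± 0.07, adjusted p = 0.000913), the kinase gene Aurka had a log2 fold change of 0.86 ± 0.09 (adjusted p = 0.0015), and Cdc23 of the anaphase-promoting complex had a log2 fold change of 1.02 ± 0.08 (adjusted p = 0.0011). These genes act between the start of mitosis and the separation of the chromosomes. Of 66 DNA repair genes, 7 fell, 20 rose and 39 did not pass (against 0 to 3 falls and 8 to 15 rises without 1 array). In this list Fanci of the Fanconi pathway (log2 fold change 1.18 ± 0.12, adjusted p = 0.0016) and the glycosylase gene Neil3 (log2 fold change 1.12 ± 0.08, adjusted p = 0.000959) rose, and Lig4, the ligase of end joining, fell (log2 fold change -0.80 ± 0.16, adjusted p = 0.0107), a call lost without the first BTEE array or the first control array. Aspm, a spindle pole gene, had log2 signals of 5.65 and 5.79 in BTEE cells, against 6.65 and 6.58 in control cells, so that it averaged at least 6 only through its control arrays (log2 fold change -0.90 ± 0.08, adjusted p = 0.00134).

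Most expressed replication-dependent histone genes rose with BTEE. Of 49 expressed genes, 0 fell, 37 rose and 12 did not pass, with a median log2 fold change of 0.57, and 30 to 34 rose without 1 array. Among H1 and H2A genes 14 of 17 rose, among H2B genes 8 of 13 and among H3 and H4 genes 15 of 19, and the H2B rises numbered 2 to 6 without 1 array. Hist1h2ab had log2 signals of 12.32 and 12.28 in BTEE cells, against 11.20 and 11.16 in control cells (log2 fold change 1.12 ± 0.07, adjusted p = 0.000913), and Hist2h2ac had log2 signals of 14.81 and 14.77 in BTEE cells, against 13.80 and 13.71 in control cells (log2 fold change 1.03 ± 0.07, adjusted p = 0.000959). Most mRNAs of these genes lack a poly(A) tail. Their coding sequences are nearly alike, so that the signal of 1 histone gene may hold that of others. Genes used as references for expression were not all level. Tbp, the TATA-binding protein gene, rose (log2 fold change 0.80 ± 0.07, adjusted p = 0.00118) and Ywhaz, a 14-3-3 gene, fell (log2 fold change -0.49 ± 0.07, adjusted p = 0.00423), and of 12 such genes 1 fell, 4 rose and 7 did not pass (against 2 to 4 rises without 1 array).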

How the data were processed

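RNA of 8 samples of RAW264 cells was measured on mouse Clariom S arrays, 1 array a sample. The deposited log2 signals were made by the authors with the SST-RMA method of the Transcriptome Analysis Console, which corrects the background, normalizes all arrays together and gives 1 value for each probe set. Such normalization sets the arrays to a common distribution, so that a shift of all genes together cannot be seen, and array number rather than read depth limits the precision. The medians of the 4 arrays of 17 h were all 5.28, and their signals ran between 1.93 and 19.06. The authors' table of group averages matched the per-array values within 0.005. Its columns of fold changes, p-values and false discovery rates hold the study's own comparisons and were not used.

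Of 22206 probe sets, 21367 carried 1 gene symbol, 836 several and 3 none. Probe sets with several symbols were left out, and the one of highest mean over the 8 arrays was kept for each of 21154 symbols. Positions and current names came from the RefSeq table of GRCm38.p6, in which 19689 symbols matched a current and 858 an older name, and 607 matched none.

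The test was limma 3.58.1 in R 4.3.3 (lmFit and eBayes), with 1 mean for each of the 4 groups over all 8 arrays, and Benjamini-Hochberg adjustment over all symbols. Calls have an adjusted p under 0.05. An exact permutation of 2 against 2 arrays cannot reach a p under 0.05. The fit was tested on simulated data. Genes named are the 15 largest falls and 15 largest rises among symbols with a mean signal of at least 6, an adjusted p under 0.05, a fold over 1.5 and groups without overlap, up to 5 members of largest change in each of 87 gene lists, and fixed regulators and markers. The comparison, the genes and the lists were chosen with earlier results of these data known. The planned search of promoter motifs was not run here, and no promoter or protein sequence was used.

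The alternatives were quantile normalization on top, centring on the median, a minimum signal, the 4 arrays of 17 h alone, a replicate block, a prior with trend and robust fitting, the mean of all probe sets, a test against 1.5-fold, an added spread measured on sensory receptor genes, and leaving out each array.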

Additional observations from a re-analysis of the deposited data

Results flagged for a closer look

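Among the 30 genes of largest change at 17 h, 25 had a BTEE effect at 17 h that differed from the one at 6 h in limma's test of the difference (adjusted p under 0.05), where 40.6% of the expressed symbols did. The values are the log2 fold change at 17 h minus that at 6 h. Among the falls, this difference was -1.81 for Nab2, -1.96 for Cxcl3, -1.25 for Malt1, -1.64 for Wbp2, -0.75 for Gm2573, -1.8 for Napepld, -0.705 for Gm21188, -1.65 for Pdgfa, -1.36 for Chd1, -1.24 for Dusp14 and -1.06 for A230020J21Rik. Among the rises, it was 0.595 for Hist1h4f, 1.25 for Gm10721, 2.1 for Crip1, 1.39 for Bcs1l, 2.11 for Tmem141, 1.81 for Fam103a1, 0.985 for Pcgf2, 1.84 for Ndufs7, 1.51 for Zfp27, 0.92 for Gm21738, 1.03 for Hist1h4d, 0.88 for 2700094K13Rik, 1.4 for Cnnm2 and 0.94 for Lrwd1. The genes were chosen for a large change at 17 h, so that differences in the direction of that change are partly set by the choice. Crip1 and Pcgf2 also averaged at least 6 only through their BTEE arrays. With the receptor gene spread added to every standard error, none of the differences passed (0 symbols in limma).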

How the results depend on the processing

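Over all symbols, 2875 fell and 3150 rose, and the effect of 6651 differed between the times. Leaving out 1 array gave 1390 to 2744 lower, 1548 to 3002 higher and 4492 to 5175 differing, and for expressed symbols 805 to 1474 lower and 1069 to 1875 higher, with the low ends without an array of 17 h. A test against 1.5-fold left 17 lower, 13 higher and 317 differing symbols, and 14 lower and 11 higher expressed ones. Adding the receptor gene spread left 0 in each. Before adjustment, at p under 0.05 and over 1.5-fold, 887 symbols were lower and 972 higher, against 403 and 528 at a minimum signal of 6, 268 and 286 in the test against 1.5-fold, and 259 and 264 with the receptor gene spread. The replicate number did not pair the arrays (correlations of deviations between -0.0011 and 0.0202). With it as a block 2658 symbols were lower and 2903 higher, and 10 of the 439 named genes lost their call. Of these genes 48, 55, 65 and 71 lost it without 1 array of 17 h, 9 without any 1 array of 6 h, 22 with the 4 arrays alone, 5 with quantile normalization, 2 with centring and 412 in the test against 1.5-fold. Quantile normalization, centring, the 4 arrays alone, the trended robust prior and the mean of probe sets kept these counts within 1.5 times. Quantile normalization shrank the excess of rises, with 1758 expressed symbols lower and 1804 higher, against 1584 and 2034 in the main fit. The 4 arrays alone cannot give the difference between the times. No result changed direction. The 30 largest changes kept their calls in all settings but the receptor gene spread, which ended all 30, and the test against 1.5-fold, which ended 10. The promoter motif search was not run.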

Other observations

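More complement and coagulation genes fell than rose with BTEE at 17 h. Of 15 expressed complement and coagulation genes, 5 fell, 0 rose and 10 did not pass, beside the background of 17.0% lower and 21.8% higher, with 3 to 4 falls without 1 of the 4 arrays. C3, the central complement protein gene, had log2 signals of 7.35 and 7.18 in BTEE cells, against 8.05 and 8.21 in control cells (log2 fold change -0.86 ± 0.11, adjusted p = 0.00254). Serpinb2, the inhibitor of urokinase, had log2 signals of 11.41 and 11.43 in BTEE cells, against 12.50 and 12.36 in control cells (log2 fold change -1.01 ± 0.10, adjusted p = 0.00142). The BTEE arrays lay under the control arrays in both. Among C-type lectins and Ig-like receptors, 7 of 42 fell and 5 rose (16.7% and 11.9%), which is no more than the background, and 4 to 5 fell and 3 rose without 1 array. The beta-glucan receptor gene Clec7a, which encodes Dectin-1, fell (log2 fold change -0.78 ± 0.07), and the lipid-sensing receptor gene Trem2 rose (log2 fold change 0.66 ± 0.08).

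Shares near the background were found among lipid mediator, osteoclast, sterol and Notch genes. Of 16 eicosanoid genes, 3 fell, 2 rose and 11 did not pass (18.8% and 12.5%), with 1 to 2 falls without 1 array. Ltc4s, the leukotriene C4 synthase gene, rose (log2 fold change 0.79 ± 0.08), and Ptgs2, the inducible cyclooxygenase gene, had log2 signals of 16.80 and 16.78 in BTEE cells, against 17.22 and 17.24 in control cells, and fell (log2 fold change -0.44 ± 0.07). Of 17 osteoclast genes, a fate that RAW264 cells can take, 4 fell, 3 rose and 10 did not pass (against 2 to 4 falls without 1 array), or 23.5% lower and 17.6% higher. The fusion gene Dcstamp fell (log2 fold change -0.80 ± 0.10), and Nfatc1, the master regulator of that fate, rose (log2 fold change 0.68 ± 0.08). Of 43 sterol and fatty acid genes, 9 fell, 8 rose and 26 did not pass (against 5 to 9 falls and 1 to 4 rises without 1 array), or 20.9% lower and 18.6% higher, and the cholesterol exporter gene Abca1 fell (log2 fold change -0.55 ± 0.09). In the Notch pathway, 4 of 17 genes fell and 3 rose (23.5% and 17.6%), with 0 to 2 rises without 1 array. Dtx2, a ligase that binds Notch, fell (log2 fold change -1.10 ± 0.08, adjusted p = 0.000953).

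Among expressed symbols the direction of the change moved with the length of the gene on the chromosome, from its start to its end with introns. The median span was 27.6 kb for the symbols that fell, 17.6 kb for those that rose and 24.4 kb for those that did not pass. In the fifth of symbols with the shortest spans 13.5% fell and 28.7% rose, and in the fifth with the longest 22.3% fell and 13.9% rose. Genes are not independent replicates, so that this is a description with no test, and the part of span in the results above was not tested.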
